A study of Sus scrofa with 19 samples.

Results

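The levels of 10 genes of the antioxidant defence were followed in left ventricular (LV) tissue of pigs. They are NFE2L2, which encodes the transcription factor NRF2, and the enzyme genes SOD1, SOD2, SOD3, CAT, GPX1, GPX3, GPX4, TXNRD1 and PRDX3. The 10 genes were found by their symbols in the authors' table and taken by their Ensembl identifiers from count files that hold 25879 genes. All 10 passed the filter on low counts, as did 13552 genes in all. Poly(A) RNA of 19 female large white pigs was sequenced, with 1 library per pig, to compare models of myocardial fibrosis with controls. In DOX (n = 5), pigs were given the anthracycline doxorubicin, and in MYO (n = 5) Myocet, its liposomal form. Both were given at 60 mg/m2 in each of 3 cycles, and tissue of the anterior wall was taken after 3 months. In RemoLV (n = 3), the left anterior descending artery was closed for 90 min and reopened, and remote posterior wall was taken at 6 months. In Hyper (n = 3), a stent of 9 mm in the descending thoracic aorta became a stenosis as the juvenile pig grew, and anterior wall was taken at 6 months. Control pigs (n = 3) had neither drug, infarct nor stent, and anterior wall was taken at 6 months, so that RemoLV and Control also differ in the wall sampled. They are called sham-operated in the labels and untreated in the study's methods. No group carried a transgene, no samples were pooled, and the hearts were not flushed of blood.

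Reactive oxygen is removed in steps. Superoxide dismutases turn superoxide into hydrogen peroxide, SOD1 in the cytosol with copper and zinc, SOD2 in the mitochondrial matrix with manganese, and SOD3 outside the cell. Hydrogen peroxide is then broken down by catalase in peroxisomes, by glutathione peroxidases and by peroxiredoxins, and thioredoxin reductase returns the thioredoxin that peroxiredoxins use to its reduced form. NRF2 is held low by KEAP1 and, when released, binds with small MAF proteins to antioxidant response elements of genes for glutathione and thioredoxin enzymes. Cardiac muscle is rich in mitochondria, and anthracyclines are known to cycle electrons to oxygen there.

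Of the members, 4 encode selenoproteins, in which a TGA codon inside the reading frame is read as selenocysteine, the residue of the active site. The codons are shown because these 4 genes share a need for selenium that the other 6 do not have. They were read from the RefSeq gene models on the Sscrofa11.1 genome, coding strand 5′ to 3′, with the selenocysteine codon in capitals.
GPX1: gtagcgtcgctcTGAggcacaacggtg
GPX3: gtggccagctacTGAggcctgacgggc
GPX4: gtggcctctcaaTGAggcaagacggag
TXNRD1: caggccggttgcTGAggttaa
The stretch of GPX1 lies at chr13:31917168-31917194 (minus strand), with the TGA as codon 52 of 207, the stop codon included. That of GPX3 lies at chr16:71984086-71984112 (minus strand), codon 73 of 227 in a gene model that RefSeq marks as partial. That of GPX4 lies at chr2:77322621-77322647 (minus strand), codon 73 of 198. In TXNRD1 the codon is 498 of 500, the next to last residue, at chr5:80172260-80172280 (minus strand). All 4 lie in coding exons. In the 3 peroxidases the codon is followed by a glycine codon, as it is in TXNRD1, where a stop codon comes next.

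The core of the antioxidant response element, TGACNNNGC on either strand, was searched from 250 bases before to 50 bases after the RefSeq gene start, on Sscrofa11.1. Of the 10 members, 1 had a match, GPX4, against 2410 of 19531 promoters of the same length (12.3%). The stretch at chr2:77324102-77324131 is shown on the strand of the gene, with the motif, which reads on the opposite strand, in capitals.
GPX4: ctgagagcatGCGCAGTCAcctacagcaac
The match lies 190 bases before the start. SOD3 had no match at its gene start and 2 at a further RefSeq transcript start (chr8:18800695, plus strand), TGACTAAGC at position −44 and TGACGCTGC at position 4 relative to that start; the share of 12.3% covers gene starts only. A match of these letters is a description of the sequence, and no match says only that they are absent from this window.

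Levels are given in CPM, counts per gene relative to library size after TMM scaling in edgeR, and conditions were taken from the labels of the count files (file labels). Total counts were between 9527710 and 20370209 per library (median 14527230). In the authors' table, 8 of the 19 libraries carry the name of another group (table names): Control and RemoLV swap all 3 of their libraries, and 1 DOX library swaps with 1 MYO library. The tests of the members and the counts of the gene lists were therefore computed under both namings, and all other values go by file label. The tissue check set the RemoLV-labelled libraries apart. Their MYL2, the ventricular myosin light chain, averaged 58 CPM against 10400 to 15900 in the other groups, IRX4 was at 0.106 CPM and HEY2 at 3.52 CPM. Their MYL4, the atrial myosin light chain, averaged 7170 CPM against 1.02 to 9.87 elsewhere, although the labels give posterior LV wall. The 10 DOX and MYO libraries held transcripts of Y-chromosome genes (DDX3Y 122 and 101 CPM), which were at or near 0 in the other 9, although all pigs are given as female. These 10 libraries came from an earlier study of the same laboratory and an earlier time of tissue removal, so that drug, series of libraries and time cannot be told apart. The share of counts on the 10 largest genes, led by mitochondrial MT-CO1, was 24.6% to 33.7% in Control, 24.0% to 30.7% in Hyper, and 17.9% to 24.2% in the other groups. The TMM factor was 0.696 to 0.965 in Control and 1.10 to 1.18 in the RemoLV-labelled libraries. With plain library totals in place of TMM, Control means of the members were 0.779 to 0.829 times, and RemoLV means 1.13 to 1.15 times, the values given here.

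**Figure D1:**
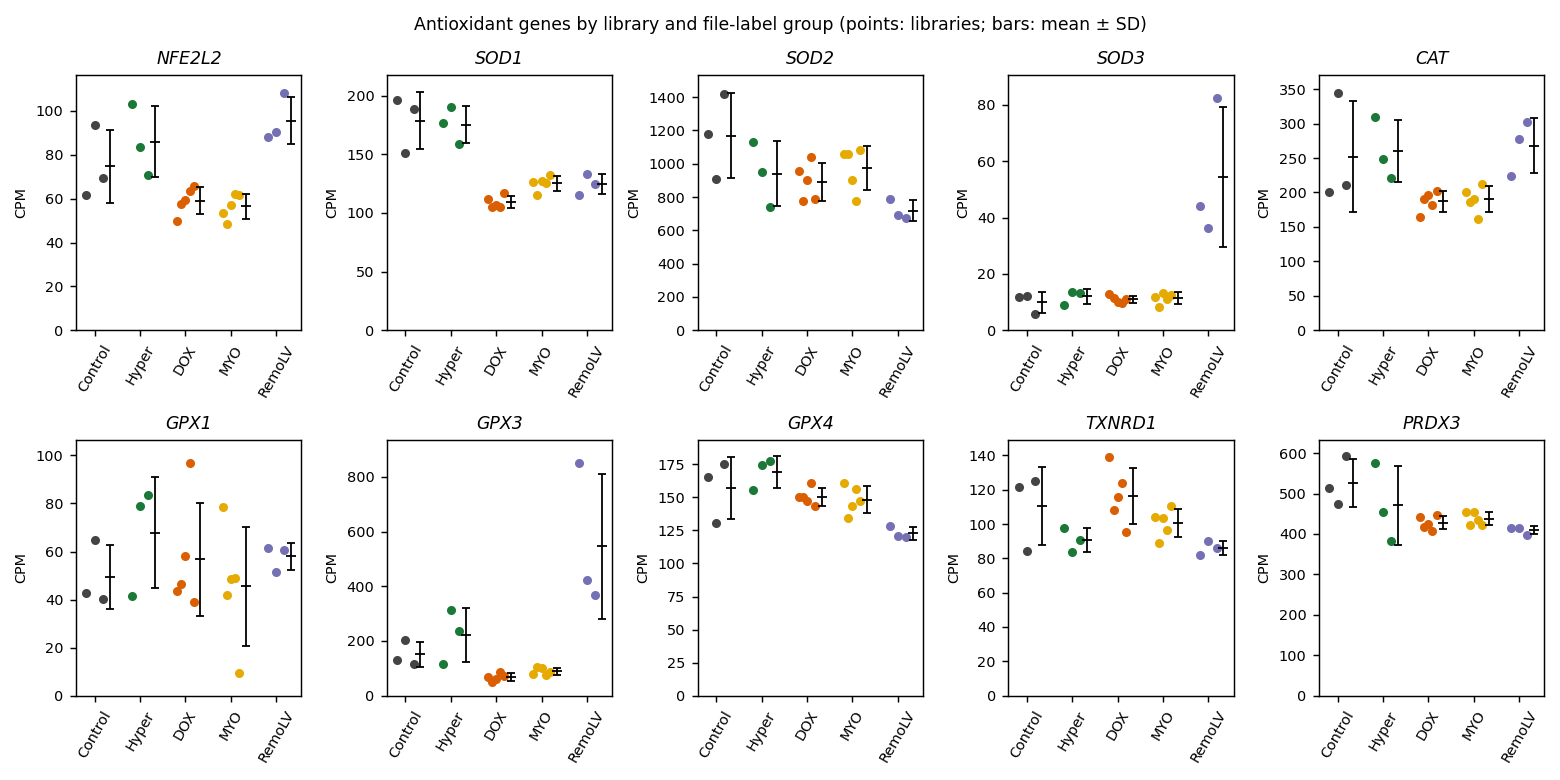
Each panel shows 1 gene, with CPM on the vertical axis from 0 and the 5 file-label groups on the horizontal axis; each point is a library and the bars give mean and SD. SOD1 was between 105 and 132 CPM in DOX and MYO and between 151 and 196 CPM in Control and Hyper, and SOD3 and GPX3 were highest in the RemoLV-labelled libraries.

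Divided by the length of their RefSeq exons, the members differed widely in level. SOD2 was highest with a median of 543 CPM per kb over the 19 libraries, followed by PRDX3 (278 CPM per kb), SOD1 (198) and GPX4 (169). CAT (82.4), GPX3 (66.8) and GPX1 (61.5) lay in the middle, and TXNRD1 (28.1), SOD3 (7.05) and NFE2L2 (6.27) were lowest. The lowest SOD2 value, 402 CPM per kb, was above the highest PRDX3 value, 377 CPM per kb. Over all libraries the mitochondrial enzymes SOD2 and PRDX3 thus headed the order, and the secreted SOD3 and the transcription factor closed it. The RemoLV-labelled group departed from it, since GPX3 averaged 349 CPM per kb there against 261 CPM per kb of PRDX3, and SOD3 32.0 CPM per kb against 24.8 CPM per kb of TXNRD1. CAT, GPX3 and GPX1 did not differ in order beyond their spread, since GPX3 ranged from 32.4 to 543.7 CPM per kb and GPX1 from 11.5 to 121 CPM per kb. Counting used the Ensembl gene model, so that these lengths are approximate.

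In the comparison with Control, DOX and MYO libraries had lower SOD1 and GPX3, and RemoLV-labelled libraries had lower SOD1 and SOD2 and higher SOD3 and GPX3. A gene was called at a Benjamini-Hochberg adjusted p of at most 0.05 over all 13552 genes, in the quasi-likelihood test of edgeR. In DOX vs Control, 4 of the 10 members were lower (SOD1, CAT, GPX3, PRDX3), against 21.1% of all genes lower, and 0 were higher, against 21.0%. In MYO vs Control, 4 were lower (NFE2L2, SOD1, CAT, GPX3), against 21.7%, and 0 higher, against 20.7%. In RemoLV vs Control, 5 were lower (SOD1, SOD2, GPX4, TXNRD1, PRDX3), against 24.0%, and 2 higher (SOD3, GPX3), against 23.1%. With 10 members, the lower counts stand 2 or 3 genes above the shares of all genes, the 2 higher members in RemoLV are at that share, and none of these gaps was tested. The values of the groups did not overlap for 3 members in DOX, against 34.5% of all genes, for 3 in MYO, against 37.6%, and for 6 in RemoLV, against 52.1%. The median log2 fold change of the members was −0.32 in DOX, −0.26 in MYO and −0.13 in RemoLV, where the median of all genes was 0.03, 0.02 and 0.02. These comparisons share the 3 Control libraries.

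The lower calls depended on the scaling. With plain library totals in the same test, the median log2 fold change of all genes moved to 0.45, 0.44 and 0.52 for the comparisons of DOX, MYO and RemoLV, and the calls over all genes were then split into 5622 higher and 705 lower in DOX, 5499 and 753 in MYO, and 6178 and 1038 in RemoLV, against 2842 and 2862, 2804 and 2944, and 3136 and 3257 with TMM. The members moved up with the rest. In DOX, SOD1 (−0.27, adjusted p = 0.0279) and GPX3 (−0.79, adjusted p = 0.0392) were still lower, and GPX4 (0.39) and TXNRD1 (0.53) became higher. In MYO, GPX4 (0.37) and TXNRD1 (0.33) became higher and no member was lower. In RemoLV, SOD3 (2.94) and GPX3 (2.31) were higher as before, NFE2L2 was added (0.83, adjusted p = 0.00465), and no member was lower. For SOD1 the values were −0.27, −0.06 and 0.01, and the change of scaling shifts all genes of a comparison nearly alike. This alternative was added after the data had been seen.

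**Figure D2:**
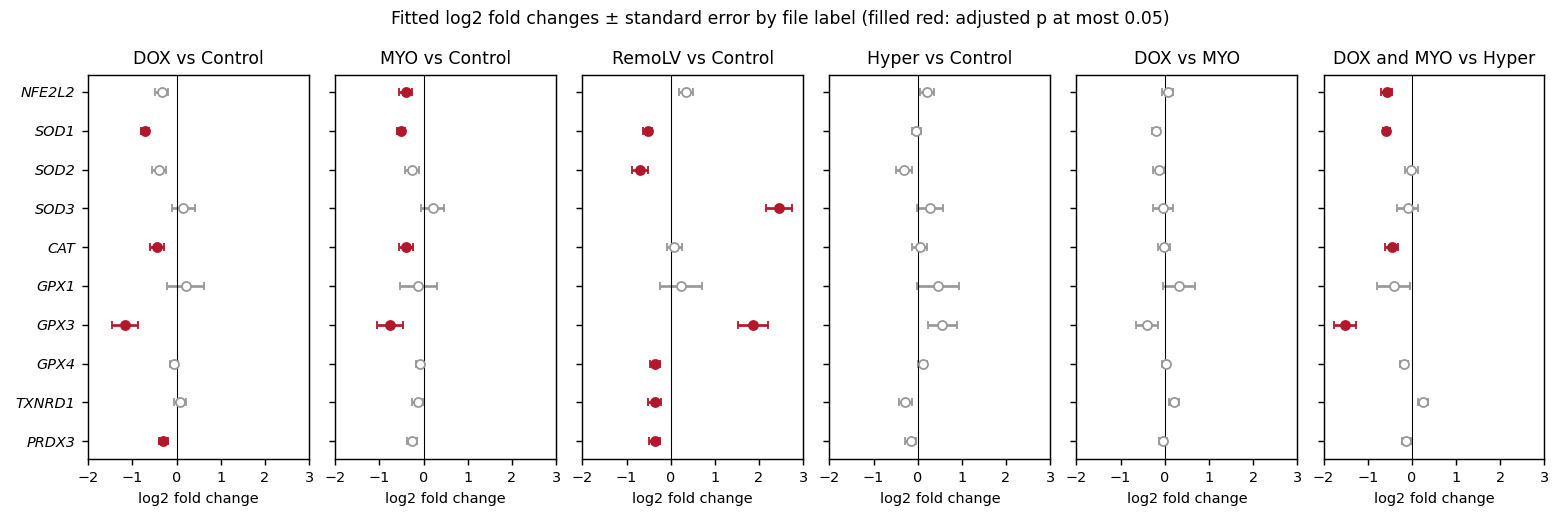
Each panel is 1 comparison by file label, with the fitted log2 fold change on the horizontal axis, the 10 genes on the vertical axis and bars of ± 1 standard error; filled red points passed the adjusted p of 0.05. SOD1 is the gene called lower in 4 panels, and the panels Hyper vs Control and DOX vs MYO hold no filled point.

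NFE2L2 (ENSSSCG00000015987, chr15:82967485-83146185, minus strand) encodes NRF2, the activator of the antioxidant programme. Its level was 61.6, 93.4 and 69.2 CPM in Control and 103, 83.7 and 70.9 CPM in Hyper. It was 49.6, 57.8, 59.5, 63.4 and 65.5 CPM in DOX and 53.6, 48.4, 57.0, 62.1 and 61.5 CPM in MYO. It was 88.2, 90.5 and 108 CPM in the RemoLV-labelled libraries. All 10 anthracycline libraries lay below all Hyper libraries and below the RemoLV-labelled ones, while Control replicate 1 fell inside their range. Against Control, MYO was lower by a log2 fold change of −0.40 (SE 0.14, adjusted p = 0.0286), a 1.32-fold difference. The DOX value was −0.34 (SE 0.14) and missed the threshold (adjusted p = 0.0630), which it passed with the replicate number as a block (−0.43, adjusted p = 0.0464), while with plain totals it was 0.05. Without Control replicate 2, which held the highest level of its group, the DOX value was −0.15 (adjusted p = 0.416) and the MYO value −0.21 (adjusted p = 0.230). Protein and nuclear location of NRF2, through which it mainly acts, were not measured.

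SOD1 (ENSSSCG00000021355, chr13:195326573-195335273, plus strand), the cytosolic dismutase, had the smallest standard errors against Control of the 10 genes. Control libraries held 196, 151 and 189 CPM, and Hyper libraries 176, 190 and 159 CPM. DOX libraries held 112, 105, 107, 105 and 117 CPM, MYO libraries 126, 115, 128, 125 and 132 CPM, and RemoLV-labelled libraries 116, 133 and 125 CPM. Every DOX, MYO and RemoLV library lay below every Control and Hyper library. Some genes of the cardiac sarcomere followed a like order and others did not: TNNT2 averaged 12800 CPM in Control and 12900 CPM in Hyper against 8160 CPM in DOX, 9120 CPM in MYO and 7210 CPM in RemoLV, and TNNC1 6400 and 6330 CPM against 4570, 4590 and 2680 CPM, whereas ACTC1 was lowest in Control (2130 CPM) and Hyper (3980 CPM) and reached 4560, 4140 and 9330 CPM. Of 6 genes of all cardiomyocytes, 4 were lower and 2 higher than Control in DOX, 4 and 1 in MYO, and 5 and 1 in RemoLV, and their summed level overlapped with Control in DOX and MYO (25248 to 34944 and 26948 to 32015 CPM against 28478 to 37676 CPM) and lay below it in RemoLV (26212 to 27848 CPM). Of 6 red blood cell genes, 5 were lower and 1 higher in DOX, 1 and 1 in MYO, and 4 and 0 in RemoLV. The part of these cells in the SOD1 difference was not tested. The count files of Control and Hyper are numbered in a common run, apart from those of the other groups. What these numbers stand for is not given, and the part of a series of libraries was not tested either. The log2 fold change against Control was −0.71 in DOX (SE 0.092, adjusted p = 1.91e-05), −0.51 in MYO (SE 0.093, adjusted p = 0.000341) and −0.52 in RemoLV (SE 0.10, adjusted p = 0.000599). These are differences of 1.64-fold, 1.43-fold and 1.43-fold. With any 1 library left out the call held in all 3 comparisons, with values of −0.82 to −0.64 in DOX, −0.62 to −0.44 in MYO and −0.63 to −0.46 in RemoLV. It did not hold under the table names, where DOX was at −0.16 (adjusted p = 0.224) and MYO at −0.01 (adjusted p = 0.937), and where RemoLV was called in the opposite direction (0.52, adjusted p = 0.000975). With plain totals, mean SOD1 was 140 CPM in Control, 117 in DOX, 134 in MYO and 141 in the RemoLV-labelled libraries.

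SOD2 (ENSSSCG00000040317, chr1:7679352-7689564, plus strand) encodes the manganese enzyme of mitochondria. It was measured at 1178, 908 and 1419 CPM in Control, 1129.6, 950.5 and 739 CPM in Hyper, and 788, 691 and 673 CPM in the RemoLV-labelled libraries. DOX ranged from 773 to 1039 CPM (median 902) and MYO from 776 to 1081 CPM (median 1056). The RemoLV-labelled libraries lay below all Control libraries, and the other groups overlapped with Control. The RemoLV log2 fold change was −0.70 (SE 0.18, adjusted p = 0.00362), a 1.63-fold difference. With plain totals it was −0.16 (adjusted p = 0.360), and by table name 0.70. In RemoLV by file label, 6 of 6 ventricular markers were lower too, and of 6 genes of all cardiomyocytes 5 were lower and 1 higher. Their part was not tested. The DOX value of −0.39 (SE 0.16, adjusted p = 0.0540) did not pass the test, and passed it with DESeq2 size factors (adjusted p = 0.0444) and in the DESeq2 Wald test (adjusted p = 0.0366). With 1 library left out it ranged from −0.55 (adjusted p = 0.0113, without Control replicate 2) to −0.23 (adjusted p = 0.336, without Control replicate 3), and it changed sign with plain totals (0.07) and by table name (0.40).

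SOD3 (ENSSSCG00000028814, chr8:18796633-18802156, plus strand), the secreted dismutase that binds to the extracellular matrix, was the member with the largest difference by file label. It was low in 16 libraries, at 11.9, 12.1 and 5.71 CPM in Control, 8.93, 13.7 and 13.3 CPM in Hyper, 9.53 to 12.9 CPM in DOX and 8.11 to 13.3 CPM in MYO. In the RemoLV-labelled libraries it was at 44.2, 36.3 and 82.5 CPM. The lowest of these 3 values was above the highest of the other 16. The log2 fold change of RemoLV against Control was 2.45 (SE 0.30, adjusted p = 6.03e-06), a 5.47-fold difference, and it stayed between 2.02 and 2.67 with any 1 library left out. The smallest count behind these values was 81 in Control and 628 in RemoLV.

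CAT (ENSSSCG00000013302, chr2:26493664-26533881, minus strand) encodes catalase. Control libraries were at 201, 344 and 211 CPM, Hyper libraries at 309, 249 and 221 CPM, and RemoLV-labelled libraries at 224, 277 and 302 CPM. DOX libraries ranged from 164 to 202 CPM (median 191) and MYO libraries from 162 to 212 CPM (median 191). The DOX libraries reached past the lowest Control library, and MYO past the 2 lowest, so that the groups overlapped. CAT was lower in DOX (log2 fold change −0.43, SE 0.16, adjusted p = 0.0353) and in MYO (−0.40, SE 0.16, adjusted p = 0.0467). Both calls rested on Control replicate 2. Without it the values were −0.14 (adjusted p = 0.417) and −0.12 (adjusted p = 0.514). With plain totals they were −0.06 (adjusted p = 0.829) and −0.03 (adjusted p = 0.908), and with the replicate number as a block the DOX value was −0.42 (adjusted p = 0.0759). In all, the DOX call was lost with 4 and the MYO call with 11 of the 19 libraries left out in turn.

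The glutathione peroxidases use glutathione to reduce peroxides, GPX1 in the cytosol and mitochondria, GPX3 in the extracellular fluid and GPX4 on lipid peroxides in membranes. They did not move together. GPX3 (ENSSSCG00000036438, chr16:71980467-71989011, minus strand) was at 131, 204 and 117 CPM in Control and 115, 314 and 234 CPM in Hyper. It was at 67.7, 50.6, 60.8, 87.4 and 70.0 CPM in DOX and at 77.3, 105, 102, 76.0 and 86.6 CPM in MYO. In the RemoLV-labelled libraries it was at 851, 423 and 366 CPM. The anthracycline groups lay below every other library and the RemoLV-labelled group above every other library.

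The log2 fold change of GPX3 was −1.16 in DOX (SE 0.29, adjusted p = 0.00382), −0.76 in MYO (SE 0.29, adjusted p = 0.0423) and 1.86 in RemoLV (SE 0.34, adjusted p = 0.000243). These are levels 2.24-fold lower, 1.69-fold lower and 3.63-fold higher than in Control. Without Control replicate 2 the DOX value was −0.88 (adjusted p = 0.0284) and the MYO value −0.47 (adjusted p = 0.229), and the MYO call was lost with 5 of the 19 libraries left out in turn. With any 1 library left out the RemoLV value stayed between 1.39 and 2.14.

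Markers of other cells moved with SOD3 and GPX3 in the RemoLV-labelled libraries. The summed level of 6 atrial markers was 9431 to 12717 CPM there, against 86.4 to 139.8 CPM in Control, 194 to 1253 CPM in Hyper, 1108 to 2407 CPM in DOX and 762 to 1241 CPM in MYO. The 6 fibroblast markers, collagens included, summed to 10667 to 12328 CPM there, against 2035 to 3432 CPM in Control, 4721 to 7020.2 CPM in DOX, 4529 to 6606 CPM in MYO and 1535 to 3823 CPM in Hyper. The adipocyte hormone ADIPOQ averaged 47.9 CPM there against 1.85 to 7.78 CPM in the other groups, whereas the sum of the 6 adipocyte markers, 224 to 341 CPM, overlapped with the 270 to 321 CPM of Control. That sum is carried by PLIN4 (75.6 against 152 CPM in Control) and FABP4 (141 against 136 CPM), whereas PLIN1 (6.41 against 1.30 CPM) and CIDEC (2.18 against 0.656 CPM) averaged higher there, as ADIPOQ did. Their part in the result was not tested, and in bulk tissue a change in the number of cells of a type and a change in RNA per cell cannot be told apart. In DOX and MYO, fibroblast sums were above those of Control while SOD3 overlapped with Control and GPX3 lay below it. The adipocyte sum was 197 to 263 CPM in DOX and 192 to 262 CPM in MYO, below the Control libraries and the Hyper libraries (284 to 356 CPM), while RemoLV-labelled libraries with high GPX3 reached down to 224 CPM. Its part was not tested either.

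**Figure D3:**
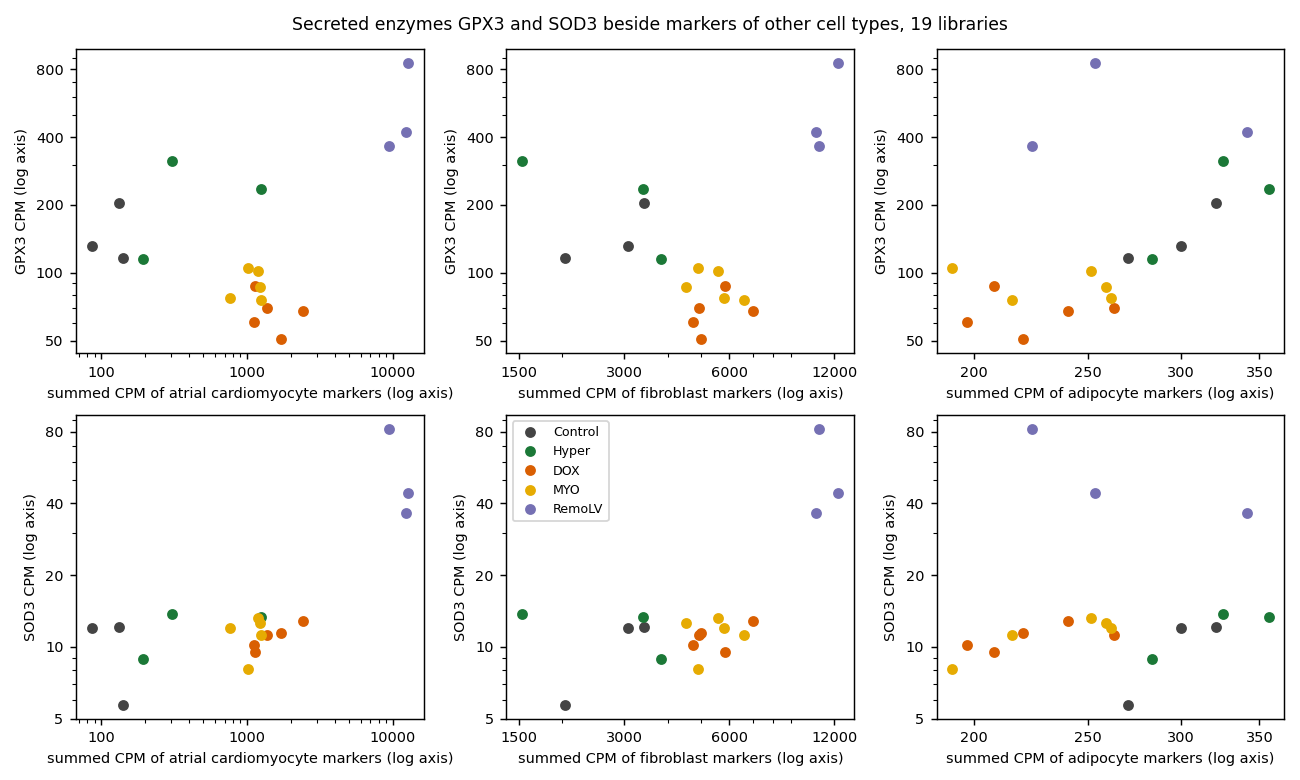
Each point is 1 of 19 libraries; the horizontal axis is the summed CPM of a marker list and the vertical axis the CPM of GPX3 (upper row) or SOD3 (lower row), both on log axes, with colours for the file-label groups. The 3 RemoLV-labelled libraries stand apart at 9431 to 12717 CPM of atrial markers and at the highest levels of both enzymes, while their adipocyte sums, carried by PLIN4 and FABP4, lie in the range of the other groups.

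GPX1 (ENSSSCG00000033727, RefSeq gene at chr13:31916269-31917337, minus strand) varied more within groups than between them. It was at 42.8, 64.6 and 40.4 CPM in Control, 41.4, 78.9 and 83.4 CPM in Hyper, and 61.6, 51.6 and 60.6 CPM in the RemoLV-labelled libraries. DOX libraries were at 43.4, 46.6, 58.0, 97.0 and 39.2 CPM and MYO libraries at 78.3, 41.8, 48.7, 49.2 and 9.22 CPM. The MYO library at 9.22 CPM held 109 counts of GPX1, the lowest value of the 19. No difference passed the test in the 6 comparisons, and the standard error of 0.42 in DOX vs Control leaves a 95% interval of −0.68 to 1.10 on the log2 scale. The identifier that the authors pair with GPX1 is paired with no symbol in the names table used here, so that these values rest on the authors' pairing.

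GPX4 (ENSSSCG00000024052, chr2:77321568-77323931, minus strand) was the steadiest peroxidase. Its level was 165, 131 and 175 CPM in Control, 155, 175 and 178 CPM in Hyper, 143 to 161 CPM in DOX and 134 to 161 CPM in MYO. The RemoLV-labelled libraries held 129, 121 and 120 CPM, below all 16 others. RemoLV was lower than Control by a log2 fold change of −0.35 (SE 0.11, adjusted p = 0.0115), a 1.28-fold difference. The call was lost without Control replicate 3 (−0.27, adjusted p = 0.0708), with upper-quartile factors (adjusted p = 0.0820) and in the fit of these groups alone (adjusted p = 0.0821). For DOX the value was −0.06, with a 95% interval of −0.26 to 0.14, and for MYO −0.08, with an interval of −0.28 to 0.12. With plain totals the mean level was 123 CPM in Control and 139 CPM in RemoLV, so that the direction of the RemoLV difference turned.

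TXNRD1 (ENSSSCG00000000843, chr5:80170334-80213889, minus strand) encodes the cytosolic thioredoxin reductase, and PRDX3 (ENSSSCG00000010682, chr14:129079050-129090790, minus strand) the peroxiredoxin of the mitochondrial matrix. TXNRD1 was at 122, 84.4 and 125 CPM in Control, 97.4, 83.6 and 90.9 CPM in Hyper, 95.5 to 139 CPM in DOX, 88.7 to 110 CPM in MYO, and 82.0, 90.1 and 85.9 CPM in the RemoLV-labelled libraries. All groups overlapped with Control. RemoLV was lower at −0.36 (SE 0.14, adjusted p = 0.0488), a call that was lost with 14 of the 19 libraries left out in turn (adjusted p from 0.00294 to 0.205). With plain totals the mean level was 86.0 CPM in Control and 97.4 CPM in RemoLV, in the other direction.

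PRDX3 was at 514, 473 and 592 CPM in Control and at 576, 455 and 382 CPM in Hyper. The remaining groups were narrow, at 408 to 446 CPM in DOX, 422 to 454 CPM in MYO, and 415, 415 and 398 CPM in the RemoLV-labelled libraries. All 13 of these libraries lay below the 3 Control libraries. The log2 fold change was −0.30 in DOX (SE 0.11, adjusted p = 0.0312) and −0.36 in RemoLV (SE 0.12, adjusted p = 0.0197), and the MYO value of −0.27 (SE 0.11, adjusted p = 0.0525) missed the threshold. With plain totals the mean level was 415 CPM in Control, 457 in DOX, 469 in MYO and 464 in RemoLV, so that the direction turned. The DOX call was lost with 5 of the 19 libraries left out in turn (adjusted p from 0.00892 to 0.200) and with the replicate number as a block (−0.29, adjusted p = 0.0773). The RemoLV call was lost without RemoLV replicate 3 (−0.34, adjusted p = 0.0584) and without Control replicate 3 (−0.27, adjusted p = 0.109). Upper-quartile factors also removed the calls of DOX (adjusted p = 0.0599) and RemoLV (adjusted p = 0.0896). So did the fit of the groups compared alone (adjusted p = 0.0524 and 0.0679).

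In Hyper, 0 of the 10 members differed from Control, where 0% of all genes were called in either direction. At an unadjusted p under 0.05, 0 members and 17.8% of all genes passed in edgeR. In the DESeq2 Wald test, at an adjusted p of at most 0.05, 0 members passed, with 111 genes higher and 206 lower in all. The lack of calls depended on the naming, since by table name 4 members passed, with values given under that naming, and 18.7% of all genes were higher and 17.2% lower. It also depended on single libraries: without Control replicate 2, 1285 genes were higher and 1253 lower, 1 of the lower ones TXNRD1 (−0.45, adjusted p = 0.0267), and without Hyper replicate 1, 330 genes were higher and 443 lower. The values of the groups overlapped for all 10 members, where they did not overlap for 9.75% of all genes. The intervals were narrow for SOD1, at −0.03 (95% interval −0.25 to 0.19), and GPX4, at 0.11 (−0.12 to 0.33). They were wide for GPX3, at 0.55 (−0.14 to 1.24), and GPX1, at 0.46 (−0.53 to 1.45).

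DOX and MYO, the free and the liposomal form of the same drug at the same dose and time, were compared for all 10 members. None passed the test and 0% of all genes did, and the groups overlapped for all 10, against 1.47% of genes without overlap. At an unadjusted p under 0.05, 7.08% of all genes and 1 member passed, SOD1, which was lower in DOX at 105 to 117 CPM than in MYO at 115 to 132 CPM (log2 fold change −0.20, SE 0.081, unadjusted p = 0.0254, adjusted p = 0.695 in the edgeR quasi-likelihood test). The DESeq2 Wald test called 0 members, and 0 genes higher and 2 lower in all. By table name SOD1 was at −0.15 (SE 0.087), GPX1 at 0.78 (SE 0.33) and TXNRD1 at 0.26 (SE 0.11), and no member was called. Which member stood out thus depended on the naming. The 95% interval of the difference was −0.37 to −0.03 for SOD1, −0.20 to 0.33 for NFE2L2, −0.32 to 0.26 for CAT, −0.15 to 0.19 for GPX4 and −0.02 to 0.45 for TXNRD1. It was widest for GPX3 (−0.94 to 0.13) and GPX1 (−0.44 to 1.09).

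The comparison of the 10 DOX and MYO libraries with the 3 Hyper libraries does not use the means of the Control and RemoLV libraries, whose names differ between the deposits. In it, 4 of 10 members were lower (NFE2L2, SOD1, CAT, GPX3), against 16.9% of all genes, and 0 were higher, against 15.8%. These 4 had no overlap between the groups, against 21.0% of all genes. NFE2L2 was at 48.4 to 65.5 CPM against 70.9 to 103 CPM, with a log2 fold change of −0.57 (SE 0.12, adjusted p = 0.00209). SOD1 was at 105 to 132 CPM against 159 to 190 CPM, at −0.58 (SE 0.082, adjusted p = 4.10e-05). CAT was at 162 to 212 CPM against 221 to 309 CPM, at −0.46 (SE 0.14, adjusted p = 0.0175). GPX3 was at 50.6 to 105 CPM against 115 to 314 CPM, at −1.51 (SE 0.24, adjusted p = 0.000166). The same 4 genes were called under the table names, with values of −0.57, −0.58, −0.46 and −1.51, since the exchange of 1 DOX and 1 MYO library leaves the pooled group as it was. CAT lost its call without Hyper replicate 1 (−0.32, adjusted p = 0.180). With plain totals, where the median of all genes was 0.29, SOD1 (−0.31, adjusted p = 0.00826) and GPX3 (−1.24, adjusted p = 0.00140) stayed lower, NFE2L2 (−0.30, adjusted p = 0.195) and CAT (−0.19, adjusted p = 0.445) did not pass, and TXNRD1 was higher (0.52, adjusted p = 0.00221). Cell markers differed too, with 5 of 10 macrophage markers higher and 1 lower, 3 of 6 fibroblast markers higher, 2 of 6 genes of all cardiomyocytes lower, 2 of 5 atrial and 1 of 6 ventricular markers higher, 2 of 6 smooth muscle markers higher, 1 of 6 red blood cell markers higher, 2 of 5 endothelial markers higher and 1 lower, and 1 of 5 adipocyte markers lower, and their part was not tested. Sex genes, time and series of libraries differ between these groups in the same way as drug, and cannot be told apart from it.

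**Figure D4:**
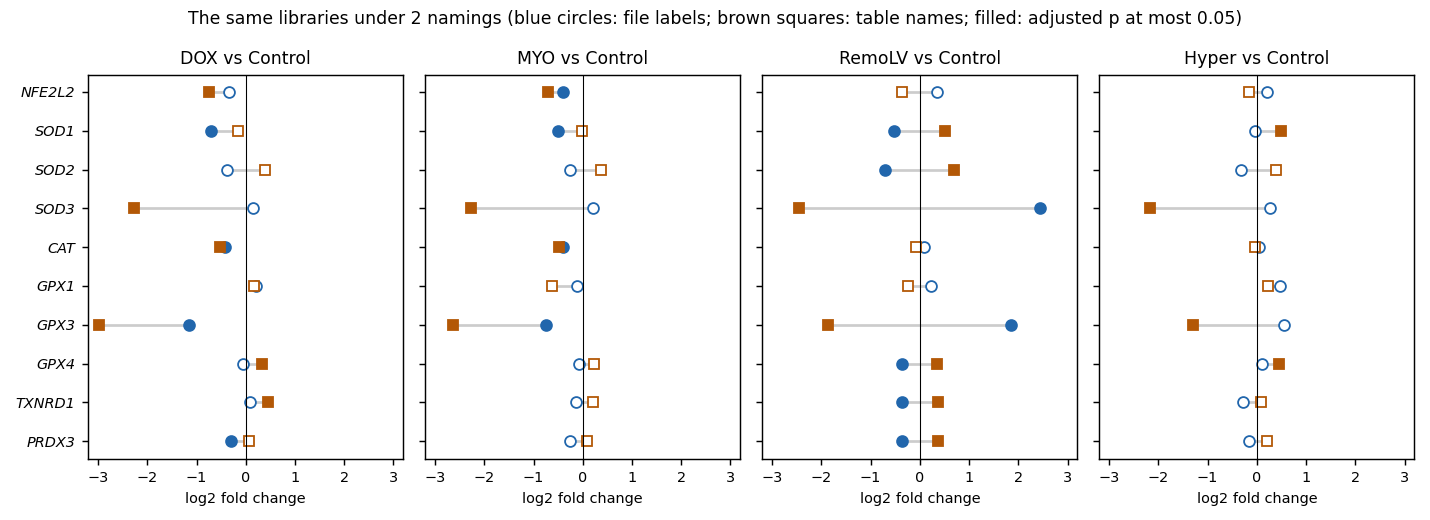
Log2 fold changes (horizontal axis) of the 10 genes against Control under both namings of the same libraries, blue circles by file label and brown squares by table name, filled where the adjusted p was at most 0.05. In RemoLV vs Control each gene changes sign, as SOD3 does from 2.45 to −2.45, because the 2 groups exchange their libraries.

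Under the table names, the same values read differently. The 3 libraries then called Control hold high SOD3 and GPX3 and low SOD1, SOD2, GPX4 and PRDX3. In DOX, 2 members were then higher (GPX4 at 0.32, adjusted p = 0.0145, and TXNRD1 at 0.46, adjusted p = 0.00997), against 15.0% of all genes, and 4 lower (NFE2L2, SOD3, CAT, GPX3), against 14.6%. In MYO, 0 were higher, against 14.8%, and the same 4 genes lower, against 14.4%. In RemoLV, 5 were higher, against 24.0%, and 2 lower, against 23.2%. In Hyper, 2 were higher (SOD1 at 0.49 and GPX4 at 0.46), against 18.7%, and 2 lower (SOD3 at −2.18 and GPX3 at −1.31), against 17.2%. CAT and GPX3 in DOX, and NFE2L2, CAT and GPX3 in MYO, were lower under either naming, GPX3 at −2.99 in DOX and −2.64 in MYO by table name. Those values set DOX and MYO against the libraries with MYL2 at 58 CPM and MYL4 at 7170 CPM, and thus also carry that difference. By file label and plain totals, CAT (−0.06 in DOX, −0.03 in MYO) was not called. Neither were NFE2L2 (−0.01) and GPX3 (−0.39) in MYO, while GPX3 in DOX (−0.79) still was.

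Around the members, 8 lists of genes of the same system were counted, in the same test as the members. Their counts were not recomputed with plain totals, and under the table names many of them turn, as given with each list. Over all genes, 21.0% were higher and 21.1% lower in DOX, 20.7% and 21.7% in MYO, and 23.1% and 24.0% in RemoLV. In DOX vs Control, 8 of 21 tested genes of the glutathione system were lower and 1 higher, with a list median of −0.41, and 7 of 15 of the thioredoxin and peroxiredoxin system were lower and 2 higher, with a list median of −0.31, where the median of all genes was 0.03. In MYO the counts were 7 lower and 4 higher of 21 and 5 lower and 2 higher of 15, and in RemoLV 9 lower and 5 higher of 21 and 4 lower and 1 higher of 15. By table name, the glutathione list had 6 lower and 0 higher in DOX, 5 and 1 in MYO, and 5 and 9 in RemoLV, and the thioredoxin list 3 lower and 3 higher in DOX and in MYO, and 1 and 4 in RemoLV. Thioredoxin itself, TXN, averaged 39.0 CPM in DOX and 39.4 CPM in MYO against 52.7 CPM in Control (log2 fold changes −0.43 and −0.42, adjusted p = 0.000906 and 0.00115). PRDX6, a peroxiredoxin that also acts on phospholipid peroxides, was at 166 CPM in DOX against 259 CPM (−0.64, adjusted p = 0.00140). In contrast, TXNRD2, the mitochondrial counterpart of TXNRD1, rose to 26.3 CPM in DOX and 26.4 CPM in MYO from 18.6 CPM (0.49 and 0.50, adjusted p = 0.00128 and 0.00111).

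**Figure D5:**
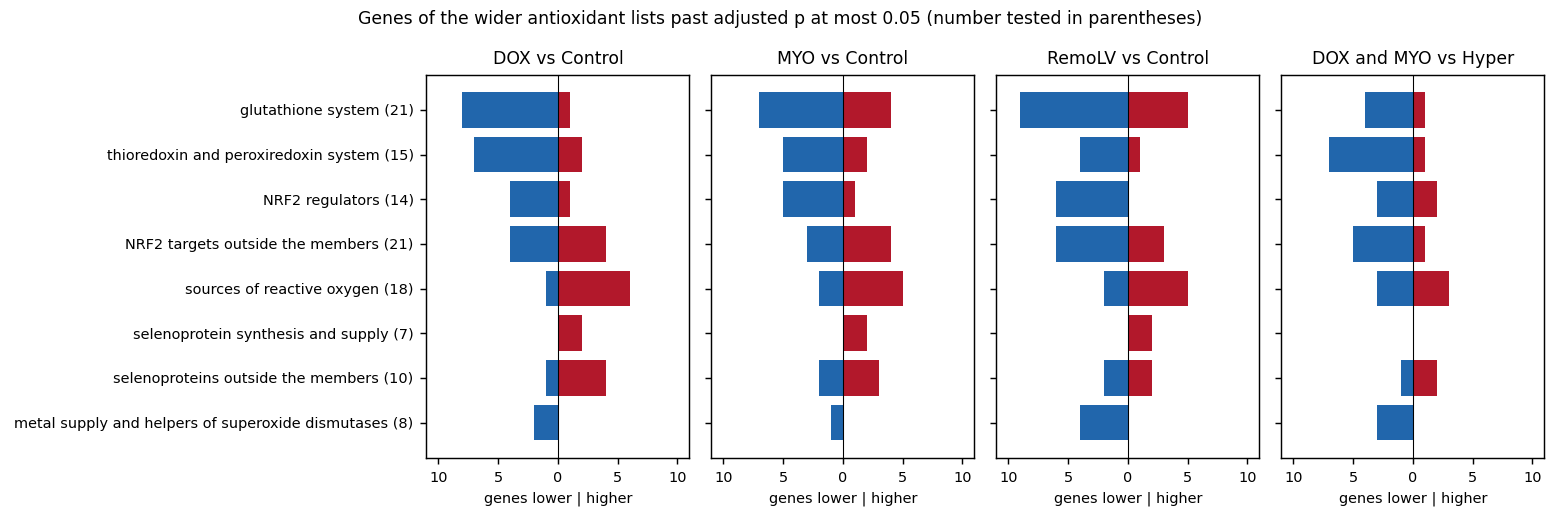
Bars give the number of genes of each list called lower (blue, to the left) or higher (red, to the right) at an adjusted p of at most 0.05, in 4 comparisons by file label, with the number of genes tested in parentheses. The glutathione list has more lower than higher genes in all 4 panels, and the 18 sources of reactive oxygen have 6 higher and 1 lower in DOX, counts that turn in part under the table names.

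Among the regulators of NRF2, 4 of 14 were lower and 1 higher in DOX, 5 lower and 1 higher in MYO, and 6 lower and 0 higher in RemoLV. By table name the direction turned, with 1 lower and 4 higher in DOX and in MYO, and 0 lower and 6 higher in RemoLV. BACH1, a repressor that competes with NRF2 for its sites, was at 19.4 CPM in DOX, 18.3 CPM in MYO and 16.6 CPM in RemoLV, against 37.0 CPM in Control (log2 fold changes −0.93, −1.01 and −1.15, adjusted p = 0.00286, 0.00157 and 0.00125). CUL3, the scaffold of the ligase that marks NRF2 for breakdown, was lower in DOX (−0.64, adjusted p = 0.000178) and MYO (−0.61, adjusted p = 0.000255). MAFK, a small MAF partner, was higher in both (0.83 and 0.98, adjusted p = 0.00813 and 0.00270). KEAP1, looked up after the list had been counted, was at 77.9 CPM in DOX, 79.3 CPM in MYO, 81.4 CPM in RemoLV and 84.8 CPM in Hyper against 70.8 CPM in Control, and passed the test in none.

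Of 21 known NRF2 targets outside the members, 4 were higher and 4 lower in DOX, 4 higher and 3 lower in MYO, and 3 higher and 6 lower in RemoLV. By table name they were 5 higher and 6 lower, 4 and 6, and 6 and 3. The export pump ABCC1 was higher in DOX (67.5 against 34.9 CPM, 0.95, adjusted p = 0.000240) and in MYO (0.70, adjusted p = 0.00239). GCLM, the modifier subunit of the first enzyme of glutathione synthesis, was lower in DOX (21.4 against 34.5 CPM, −0.69, adjusted p = 0.0368). Against Hyper, 5 of the 21 targets were lower in DOX and MYO, 1 of them NQO1, a quinone reductase that is a standard readout of NRF2, at 22.1 against 37.3 CPM (−0.76, adjusted p = 0.00901). The 1 target that was higher there was ABCC1 (0.89, adjusted p = 0.000265). TXNIP, the inhibitor of thioredoxin, was at 945 against 2305 CPM in the same comparison (−1.29, adjusted p = 0.00510).

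Of 18 sources of reactive oxygen, DOX had 6 higher and 1 lower, MYO and RemoLV each 5 and 2. By table name this did not hold, with 0 higher and 1 lower in DOX, 0 and 3 in MYO, and 2 and 5 in RemoLV. NOS2, the inducible nitric oxide synthase, rose from 8.70 CPM in Control to 16.3 CPM in DOX (0.91, adjusted p = 0.00499) and 19.9 CPM in MYO (1.19, adjusted p = 0.000682), and NOS3, the endothelial form, fell from 41.6 to 26.3 CPM in DOX (−0.66, adjusted p = 0.00752). RAC2 and NCF4, parts of the oxidase of phagocytes, rose in DOX by 1.21 and 0.85. The macrophage markers moved with them, with 6 of 10 higher and 1 lower in DOX, and their part was not tested.

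Selenoproteins are made with dedicated factors, and dismutases need metal ions and helpers. Of 7 genes of selenoprotein synthesis and supply, 2 were higher and 0 lower against Control in each of the 3 comparisons, and by table name 0 were higher and 1, 1 and 2 lower. In RemoLV, 1 of them was SELENBP1, a selenium-binding protein, at 111 CPM in the RemoLV-labelled libraries against 21.7 CPM (2.34, adjusted p = 0.000279). Of 10 further selenoproteins, 4 were higher and 1 lower in DOX, TXNRD3 (0.83) and SELENON (0.64) among the higher ones, 3 and 2 in MYO, and 2 and 2 in RemoLV. By table name the counts were 3 and 0, 2 and 0, and 2 and 2. Of 8 helpers of the dismutases, 2 were lower in DOX, 1 in MYO and 4 in RemoLV, with none higher, whereas by table name 2 were higher in DOX, 3 in MYO and 4 in RemoLV, with 0, 1 and 0 lower. MTF1, the zinc-sensing factor that drives metallothioneins, was lower in all 3, at 5.89, 5.04 and 4.76 CPM against 12.1 CPM (−1.03, −1.26 and −1.33). In Hyper vs Control and DOX vs MYO, 0 genes of the 8 lists passed the test by file label. By table name, Hyper vs Control, with 18.7% of all genes higher and 17.2% lower, had calls in all 8 lists: 5 higher and 4 lower of the glutathione list, 6 and 1 of the thioredoxin list, 5 and 0 of the regulators, 8 and 2 of the targets, 0 and 3 of the sources of reactive oxygen, 0 and 1 of selenoprotein synthesis, 3 and 0 of the other selenoproteins, and 4 and 0 of the dismutase helpers. The counts of DOX and MYO vs Hyper were the same under both namings in 7 of the 8 lists, with 4 in place of 5 targets lower by table name.

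The genes whose pattern over the 19 libraries was most like that of a member were found by the mean absolute difference of log2 CPM, each gene centred on its mean. For NFE2L2 they were MXI1 (0.0948), RAB11FIP2 (0.10) and MBTD1 (0.107), where NFE2L2 itself deviated from its own mean by 0.289. For SOD1 it was the ribosomal protein gene RPL23 (0.0634, own deviation 0.247), for SOD2 the pyruvate dehydrogenase subunit PDHA1 (0.0977, own deviation 0.231), and for PRDX3 LAPTM4A (0.0499, own deviation 0.119). For SOD3 and GPX3 the nearest genes, BEX3 (0.177, own deviation 0.588) and CNTN3 (0.335, own deviation 0.889), were further off, and for GPX1 the nearest, KRT10 (0.322), was almost as far as GPX1 was from its own mean (0.442).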

How the data were processed

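Read pairs had been aligned by the authors with STAR to Sscrofa11.1, and HTSeq 0.11.1 (union mode, reverse strand) gave counts per Ensembl gene. These were deposited as whole-number counts, not normalized. A further deposited table holds log2-like expression values that the authors had transformed with DESeq2, used here only for symbols and for the names of its columns, and with their own log2 fold changes and adjusted p-values, which were not used. Its 19 columns were each paired with the library that ranked the genes identically (Spearman 1.0, next highest 0.992).

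The 10 members and all gene lists were chosen with earlier results of these data known. In R 4.3.3, counts were scaled by TMM and filtered by filterByExpr in edgeR 4.0.16, which kept 13552 of 25879 genes, and tested with the quasi-likelihood test in 1 model of 5 groups (19 libraries), with Benjamini-Hochberg adjustment over all genes kept. A gene was called at an adjusted p of at most 0.05. Standard errors were the fitted log2 fold change over the square root of F. Each comparison was DOX, MYO, RemoLV or Hyper against Control, DOX against MYO, or the mean of DOX and MYO against Hyper. All members were named in every comparison. From each list up to 3 called genes of either direction with a mean log2 CPM of at least 2 could be named. Values without a further p in the text come from the same test. Alternatives were other scalings, DESeq2 1.42.0, other filters, fewer samples, a replicate block, the table names, the omission of each library and, added after the data had been seen, plain library totals. The deviations of same-numbered libraries correlated at 0.117 to 0.242 in all 3 pairs of DOX and Control, picked from 32 pairs of −0.246 to 0.242. No label pairs these pigs. Blocked values stand, as an alternative only, beside the DOX results whose call they change. The procedure was also run on simulated counts in which few genes, of a single group, were changed. These counts cannot check the scaling on which the lower calls depend. Sequences and exon lengths are from RefSeq for Sscrofa11.1. Total counts of 9527710 to 20370209 per library set the counting precision, and p-values measure the spread between pigs.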

Additional observations from a re-analysis of the deposited data

How the results depend on the processing

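The counts of called members kept their side in most fits with a library omitted, and moved in several comparisons by table name and with plain totals. Among alternative values of single members, 1533 kept direction and side of the threshold, 79 lost and 33 gained a call, and 85 changed sign. The omission of single libraries gave 1044 of the 1533 and 33 of the 85. By table name, 26 values kept direction and side, 2 lost and 3 gained a call, and 29 changed sign. These 29 include SOD3 in RemoLV, from 2.45 to −2.45. With plain totals, 30 kept direction and side, 8 lost and 3 gained a call, and 19 changed sign. The cause was not tested where no cause is named. Over 32 pairs of same-numbered libraries the correlation of deviations ranged from −0.246 to 0.242, with 4 above 0.1. Of these, 3 are the 3 pairs of DOX and Control (0.242, 0.158 and 0.117). They were picked by their values from the 32 pairs, and no label pairs these pigs. The block is therefore an alternative only, and not a known pairing. With the numbers as a replicate block, 2 members were lower in MYO instead of 4 (CAT at an adjusted p of 0.0918 and GPX3 at 0.0868). This was near the share of all genes, 2455 of 13552. NFE2L2 was called in DOX (−0.43, adjusted p = 0.0464) where CAT (0.0759) and PRDX3 (0.0773) were lost, TXNRD1 was lost in RemoLV (0.0626), and SOD2 was at 0.0057 in DOX and MYO vs Hyper.

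Upper-quartile factors moved the median of all genes in RemoLV vs Control from 0.02 to 0.14. With them, DOX had 2 lower members, MYO 1 and RemoLV 2, where 2466, 2520 and 2641 of 13552 genes were lower. The members were thus near or below the share of all genes. Under these factors GPX4 in DOX (0.00063), SOD1 in Hyper (0.0105) and SOD2 in DOX and MYO vs Hyper (0.016) changed sign. In the fit of the groups compared alone, 2 were lower in DOX and 2 in RemoLV, with fewer libraries to estimate the spread. These counts were near the share of all genes, 2262 of 12931 in DOX and 2626 of 13054 in RemoLV. Without the RemoLV-labelled libraries, CAT in MYO was lost (adjusted p = 0.0511). The DESeq2 Wald test also called NFE2L2 and SOD2 in DOX and PRDX3 in MYO.

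With plain totals, 2 members were higher and 2 lower in DOX, 2 and 0 in MYO, 0 lower in RemoLV, and 1 higher and 2 lower in DOX and MYO vs Hyper. In the last comparison 3894 of 13552 genes were higher and 760 lower, and the counts of the others are given above. Changes of sign were NFE2L2 (0.052), SOD2 (0.067), GPX4 (0.39) and PRDX3 (0.14) in DOX, SOD2 (0.19), GPX1 (0.26), GPX4 (0.37), TXNRD1 (0.33) and PRDX3 (0.18) in MYO, SOD1 (0.0065), GPX4 (0.18), TXNRD1 (0.18) and PRDX3 (0.16) in RemoLV, SOD1 (0.15) and PRDX3 (0.012) in Hyper, and SOD2 (0.26), SOD3 (0.17), GPX4 (0.084) and PRDX3 (0.14) in DOX and MYO vs Hyper. Of 50 group means in CPM, 21 moved by more than 1 SD.

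By table name, 2 members were higher in DOX, 5 higher and 2 lower in RemoLV, and 2 higher and 2 lower in Hyper. Changes of sign were SOD2 (0.40), SOD3 (−2.28), GPX4 (0.32) and PRDX3 (0.067) in DOX; SOD2 (0.36), SOD3 (−2.27), GPX4 (0.24), TXNRD1 (0.20) and PRDX3 (0.091) in MYO; all 10 in RemoLV, with NFE2L2 −0.35, SOD1 0.52, SOD2 0.70, SOD3 −2.45, CAT −0.086, GPX1 −0.23, GPX3 −1.86, GPX4 0.35, TXNRD1 0.36 and PRDX3 0.36; NFE2L2 (−0.15), SOD1 (0.49), SOD2 (0.39), SOD3 (−2.18), CAT (−0.044), GPX3 (−1.31), TXNRD1 (0.076) and PRDX3 (0.20) in Hyper; and NFE2L2 (−0.053) and SOD2 (0.038) in DOX vs MYO. The cause is the exchange of libraries.

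With 1 library left out, lower members ranged from 2 to 6 in DOX (2 without DOX replicate 2), from 1 to 5 in MYO (1 without MYO replicate 1), from 2 to 5 in RemoLV (2 without Control replicate 3, 3 without RemoLV replicate 3), from 0 to 1 in Hyper (TXNRD1, −0.45, adjusted p = 0.0267, without Control replicate 2) and from 3 to 4 in DOX and MYO vs Hyper. Over all genes in the named fits, 2611 of 13560 were lower in DOX and 2803 of 13549 in MYO. In RemoLV they were 2606 of 13802 and 2846 of 13772, and in Hyper 1253 of 13792. Higher members ranged from 2 to 4 in RemoLV and from 0 to 1 in DOX and MYO vs Hyper (4 and 1 without Control replicate 2, where 3692 and 2455 of 13792 genes were higher). Values that crossed 0 ranged as follows: in DOX, SOD3 from −0.12 to 0.32, GPX1 from −0.074 to 0.45, GPX4 from −0.18 to 0.024 and TXNRD1 from −0.085 to 0.18; in MYO, SOD3 from −0.072 to 0.37, GPX1 from −0.40 to 0.14 and GPX4 from −0.20 to 0.0032; in RemoLV, CAT from −0.058 to 0.37; in Hyper, SOD1 from −0.14 to 0.041, SOD3 from −0.0011 to 0.45, CAT from −0.10 to 0.33 and GPX4 from −0.010 to 0.19; in DOX vs MYO, SOD3 from −0.15 to 0.013, CAT from −0.079 to 0.015 and GPX4 from −0.013 to 0.051; in DOX and MYO vs Hyper, SOD2 from −0.16 to 0.14, SOD3 from −0.27 to 0.010 and PRDX3 from −0.25 to 0.048. Depth limits SOD3 most, with a lowest count of 81.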
